A study of Mus musculus with 6 samples.

Results

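Nuclear receptors are transcription factors that bind small fat-soluble ligands, such as fatty acids, bile acids, steroids, thyroid hormone and retinoids, and switch genes on or off from specific DNA sites. Many bind DNA as a dimer with a retinoid X receptor, and in liver they set the genes of lipid, bile acid, glucose and drug metabolism. Open chromatin at 36 of their own genes was described here, in mouse liver with and without overexpression of the kinase Dyrk1b. Peaks were taken where the deposited gene symbol of a peak was 1 of these 36 genes, which gave 95 of 22412 peaks at 30 genes. The genes Nr1h2, Nr2f1, Nr2f2, Nr4a2, Rarg and Esrrb, 6 of the 36, had no peak in the table.

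Open chromatin was read by ATAC-seq: a transposase enters nuclei, inserts sequencing adapters where DNA is accessible, and reads pile up there. The 3 control libraries are labelled Ad-EGFP, after a green fluorescent protein, and the 3 others Ad-Dyrk1b. This is the usual naming of adenoviral vectors, though the labels do not spell it out, and by these names both groups share the vector and differ in the gene it carries. The sources used here do not give the dose, the time of treatment, the strain, sex or age of the mice, the promoter of the vector, or whether each library came from its own animal, so p-values measure only the spread between these libraries, which may be technical. A whole liver mixes cell types. Fewer cells of a type and less open chromatin per cell cannot be told apart in such samples.

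The libraries held 762633 to 1267934 reads in the peaks, with the deepest in the Dyrk1b group. The median nuclear receptor peak held 25 to 47 reads per library. Reads in peaks were a small share of the library totals behind the deposited RPKM values. This share was 2.22%, 1.89% and 1.97% in controls 1, 2 and 3. It was 1.67%, 2.34% and 2.62% in Dyrk1b libraries 1, 2 and 3. Most of each total therefore lay outside the peaks of the table. The overexpressed gene checked the labels, with 10, 1 and 3 reads in controls and 27, 30 and 53 in Dyrk1b libraries at its exon 9 (log2 change 2.64 ± 0.50, adjusted p = 0.00981 by edgeR). At its exon 11 there were 9 reads in each control and 33, 28 and 39 with Dyrk1b, which did not pass (1.61 ± 0.42, adjusted p = 0.107). Reads of an introduced copy and of the mouse's own gene cannot be told apart there. Of 8 hepatocyte marker genes 4 had a peak (Ttr, Serpina1a, Tat and Cps1 had none). Their 5 peaks summed to 200 to 324 CPM (read counts scaled by each library's reads in peaks, with TMM normalisation) in controls and 226 to 245 CPM with Dyrk1b. Of 31 markers of other liver cells 9 had a peak, and their 12 peaks summed to 381 to 448 CPM in controls and 441 to 496 CPM with Dyrk1b. Among these, 3 macrophage peaks held 164 to 206 CPM in controls and 162 to 185 CPM with Dyrk1b. The 4 endothelial peaks held 110 to 121 CPM against 136 to 163 CPM. The 2 B cell peaks held 23.4 to 40.3 CPM against 45.1 to 67.6 CPM. The 2 stellate peaks held 31.7 to 48.6 CPM against 48.5 to 59.1 CPM, and 1 blood cell peak 25.5 to 35.0 CPM against 26.9 to 39.8 CPM. Bile duct markers had 0 peaks at 5 genes. The part of these marker differences in the results that follow was not tested.

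The promoters of Hnf4a and Nr0b2 are shown because a peak lay over the Nr0b2 start and over the downstream of the Hnf4a starts, while no Hnf4a peak lay over the upstream one. Sequences are the 250 bases before the RefSeq transcript start in build GRCm38.p6, on the plus strand. The deposited positions do not match this build, so the windows are placed at the starts by gene and order and not by position.

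Hnf4a encodes a receptor that keeps hepatocytes differentiated and has an upstream and a downstream promoter. RefSeq places these starts 40298 bases apart and the deposited annotation 40380. The windows lie at chr2:163506607-163506856 and chr2:163546905-163547154, and capitals mark GTTAAT on either strand, the core of sites for the hepatocyte factor HNF1.
Hnf4a upstream start: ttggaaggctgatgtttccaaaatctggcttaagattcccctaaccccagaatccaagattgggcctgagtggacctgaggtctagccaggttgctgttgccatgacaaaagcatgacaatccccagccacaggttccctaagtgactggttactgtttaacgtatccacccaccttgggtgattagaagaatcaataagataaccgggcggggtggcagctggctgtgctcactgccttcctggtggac
Hnf4a downstream start: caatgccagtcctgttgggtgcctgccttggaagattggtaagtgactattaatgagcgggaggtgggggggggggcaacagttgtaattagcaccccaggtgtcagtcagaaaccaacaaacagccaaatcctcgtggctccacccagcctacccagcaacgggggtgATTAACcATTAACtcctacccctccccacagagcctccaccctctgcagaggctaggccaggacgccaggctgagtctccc
The downstream window held 2 matches, which began 81 and 74 bases before the start, and the upstream window held 0. Of 32851 RefSeq windows of the same length, 6.43% held at least 1 match and 0.441% at least 2.

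Nr0b2 encodes SHP, a receptor without a DNA-binding domain that represses other receptors. Its window lies at chr4:133553126-133553375, and capitals mark TCAAGG on either strand, the 5′ part of the extended site that receptors such as Nr5a2 and the oestrogen-related receptors bind as monomers.
Nr0b2: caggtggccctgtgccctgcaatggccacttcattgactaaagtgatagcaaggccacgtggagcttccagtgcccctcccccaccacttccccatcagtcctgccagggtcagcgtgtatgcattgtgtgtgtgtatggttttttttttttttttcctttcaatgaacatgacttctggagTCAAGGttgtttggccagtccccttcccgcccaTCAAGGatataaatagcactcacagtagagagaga
This window held 2 matches, at 68 and 35 bases before the start, where 12.5% of all windows held at least 1 and 0.922% at least 2. The receptor core AGGTCA, on either strand, was in 9 of 53 windows of the receptor genes (17%, covering 33 of the 36 genes) and in 14% of all windows. A match of these letters is not a bound site.

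The 95 peaks were mostly intronic and far from the start. By the deposited classes 79 peaks (83.2%) lay in introns, against 60% of all peaks, and the median distance from the annotated start was 48.2 kb against 7.16 kb. Under the rule for a promoter peak (the deposited class promoter, or at most 3 kb from the start) 19 peaks at 18 genes were promoter peaks (20%, against 43.4% of all peaks). The other 12 genes with a peak, among them Hnf4a, Rara, Rarb, Ppard, Nr5a2, Esr1, Esrrg and Nr3c2, had none. Esrrg, an oestrogen-related receptor, had the most peaks, 12, all in introns, followed by Nr3c1, Nr3c2 and Thrb with 7 each, and 11 genes had 1.

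Distance to the annotated start hid some promoters. A transcript start named in the table for the same gene lay inside 14 of the 95 peaks, at 13 genes, and 3 of these peaks are not promoter peaks by distance. The Hnf4a peak at chromosome 2, 163388926 to 163389385, is listed 40427 bases from the start, yet it spans the start of another transcript, 182 bases before it and 277 after, and its class is 5′ UTR. The Pparg peak at chromosome 6, 115398980 to 115399250, listed 61203 bases away, spans the start at 115399027, whose exon 1 it covers. The third is the Rxra peak at chromosome 2, 27629913 to 27630607, over exon 1 of 4 of a shorter transcript. At Nr1h4 the peak sat on the upstream of 2 starts that lie 26936 bases apart in the deposited annotation, and no Nr1h4 peak covered the downstream start.

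Levels per kb of peak (CPM per kb, mean ± SD over all 6 libraries) ranged over the receptor peaks from 36.3 ± 23.3 in intron 4 of Nr3c2 to 158 ± 28.5 at the Esrra promoter. Esrra encodes an oestrogen-related receptor that drives mitochondrial genes. Among promoter peaks it was followed by those of the orphan receptor gene Nr2f6 (137 ± 46.8 CPM per kb), the dimer partner Rxra (125 ± 28.4), Nr0b2 (117 ± 21.4), the drug-sensing receptor Nr1i3 (116 ± 33.5) and the oxysterol receptor Nr1h3 (115 ± 11.6). Neighbours in this order lay within 1 SD of each other. The promoter peaks lowest per kb were those of Vdr, the vitamin D receptor gene (52.1 ± 14.2), Pparg, the fat cell regulator (64.7 ± 18), and Hnf4g (68.3 ± 17.4). The median was 80.3 CPM per kb over the receptor peaks and 77.6 over all peaks.

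**Figure D1:**
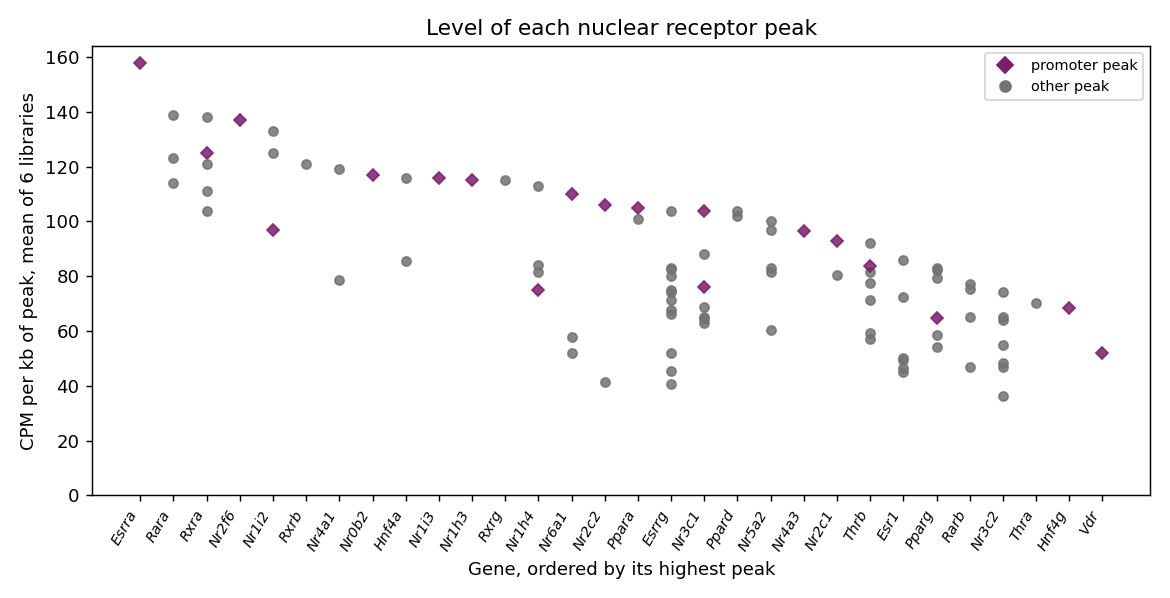
Level of each of the 95 peaks in CPM per kb of peak (mean of 6 libraries, linear axis from 0), by gene, with genes ordered by their highest peak. Promoter peaks are diamonds and other peaks circles. Esrra is highest at 158 and an intronic Nr3c2 peak lowest at 36.3.

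The comparison of Dyrk1b with control asks how the kinase alters open chromatin. None of the 95 peaks was called by edgeR's quasi-likelihood test at an adjusted p under 0.05 (Benjamini-Hochberg over all 22051 peaks tested, where 0.0317% were called), and the lowest adjusted p was 0.112. All 95 passed the filter on low counts. With the level set at an unadjusted p under 0.05, there were 4 peaks higher and 7 lower with Dyrk1b, together 11.6% of the 95, against 6.44% higher and 7.72% lower of all peaks, together 14.2%. DESeq2 called 0 of the 18 peaks it gave an adjusted p, with 2 higher and 7 lower at an unadjusted p under 0.05. It gave no adjusted p to the peak with the lowest p by edgeR, so it could not call that peak. By limma-trend 0 were called, with 3 higher and 7 lower. Over all peaks these counts were 1263 higher and 1587 lower by DESeq2, and 1421 and 1657 by limma-trend. The authors' deposited table gives an FDR under 0.05 to 0 of the 95 and a p under 0.05 to 6.

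The log2 change, Dyrk1b minus control, was positive at 41 peaks and negative at 54, with a median of -0.08, against 0.00 over all peaks. Peaks outside promoters had a median of -0.10 (30 of 76 positive) where all such peaks had 0.08, and promoter peaks 0.01 (11 of 19 positive) where all promoter peaks had -0.07. Groups did not overlap at 4 peaks that were higher with Dyrk1b and 7 that were lower, against 9.53% and 9.97% of all peaks, so that the share among receptor peaks, 11.6%, was below the 19.5% of all peaks. The split depended on scaling. The library totals behind the deposited RPKM values moved the median of all peaks to 0.17. Reads in peaks were 1.67% (Dyrk1b 1) to 2.62% (Dyrk1b 3) of these totals. Scaling by the totals and by reads in peaks therefore weights the libraries differently. With the totals 55 of 93 peaks tested were positive and 38 negative. At an unadjusted p under 0.05 by edgeR there were 6 higher and 1 lower, against 1650 and 249 of all 22032 peaks tested. Positive were then 59.1% of receptor peaks against 65.1% of all peaks, and with TMM 43.2% against 50.5%. With the library totals behind RPKM promoter peaks had a median of 0.20 against 0.10 over all promoter peaks, and the other receptor peaks 0.06 against 0.24.

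**Figure D2:**
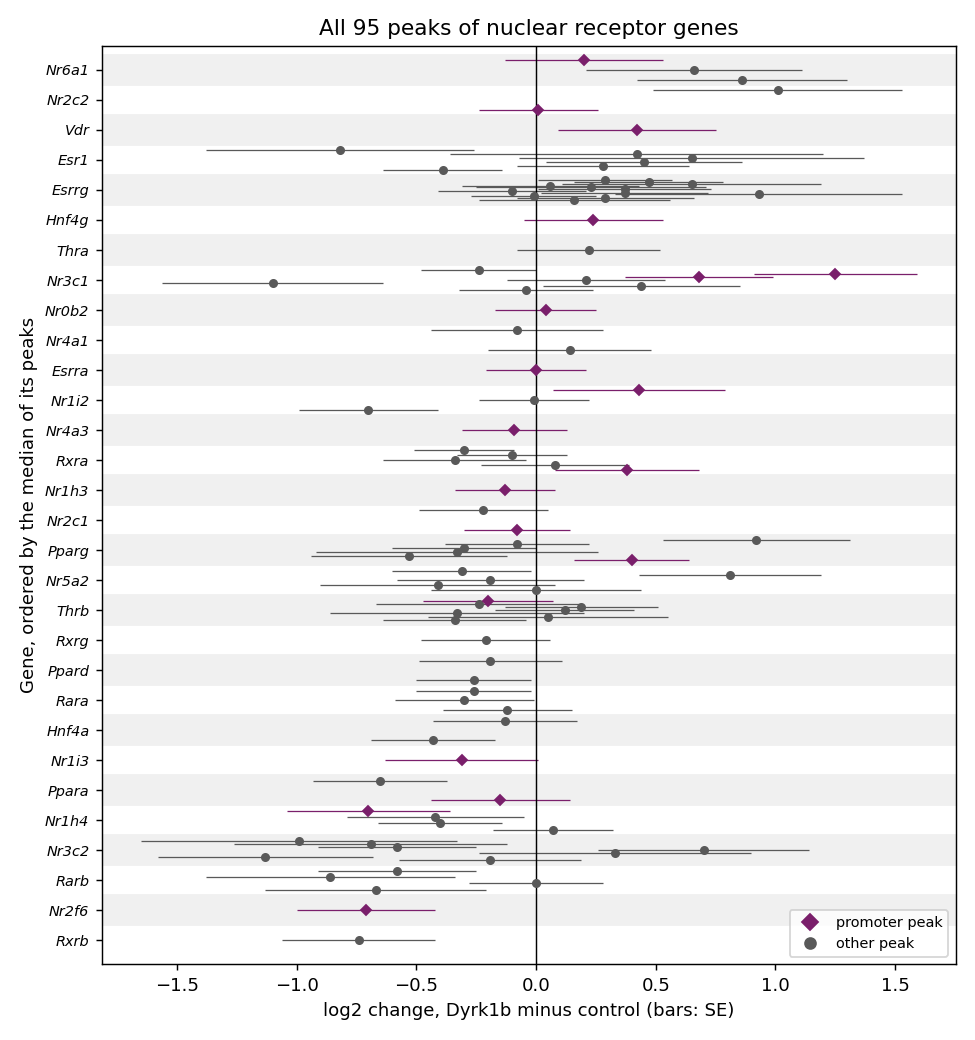
log2 change (Dyrk1b minus control, bars are SE) of all 95 peaks, with genes ordered by the median of their peaks. Promoter peaks are diamonds and other peaks circles. The highest value is 1.25 at the Nr3c1 start and the lowest -1.13 in intron 2 of Nr3c2, and none passed the adjusted threshold.

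Nr3c1, the glucocorticoid receptor gene through which cortisol-like hormones act on liver glucose production, held the peak with the lowest p of all receptor peaks. This peak lies in chromosome 18, 39623368 to 39623869, in intron 1 of 8 and over the start at 39623727. It held 10.6, 40.1 and 16.1 CPM in control libraries 1, 2 and 3 and 51.8, 67.3 and 42.2 CPM in Dyrk1b libraries 1, 2 and 3. These levels rest on few reads, 9, 33 and 12 in controls and 39, 61 and 55 with Dyrk1b. All Dyrk1b libraries were above all controls, although control 2 came within a few CPM of the lowest of them. The log2 change was 1.25 ± 0.34 (SE), from 22.3 ± 15.7 to 53.7 ± 12.6 CPM (SD, n = 3 per group), and did not pass (unadjusted p = 0.000418, adjusted p = 0.112 by edgeR). It was 0.90 without control 1 and 2.0 without control 2 (adjusted p = 0.0514). The authors' deposited table lists it at 1.48 on the log2 scale (FDR 0.295).

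The neighbouring peaks on either side differed in sign. The peak 186 bases further into intron 1 (39622807 to 39623182) held 32.8, 27.9 and 29.6 CPM in controls and 26.5, 69.5 and 47.6 CPM with Dyrk1b, where library 1 lay below all controls. Its log2 change was 0.68 ± 0.31 (unadjusted p = 0.0326, adjusted p = 0.316 by edgeR) and 0.34 without Dyrk1b 2. The peak 239 bases upstream (39624108 to 39624799) is listed 28021 bases from the start of a longer transcript, in intron 1 of 1. It held 73.9, 58.3 and 65.9 CPM in controls and 51.8, 52.9 and 62.2 CPM with Dyrk1b, for a log2 change of -0.24 ± 0.24. The groups overlapped at both neighbours.

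**Figure D3:**
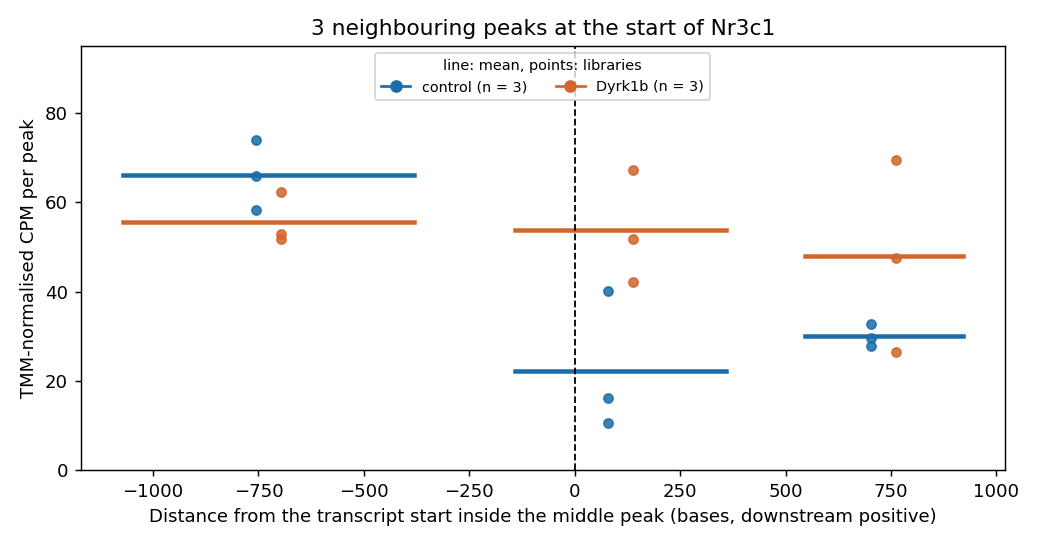
CPM of the 3 neighbouring peaks at the Nr3c1 start, placed by distance in bases from the transcript start inside the middle peak (dashed line). Points are libraries and horizontal lines are group means over the width of each peak, with n = 3 per group. In the middle peak the controls lie at 10.6 to 40.1 CPM and the Dyrk1b libraries at 42.2 to 67.3 CPM.

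The other 4 Nr3c1 peaks lay in intron 2 of 8. The peak 43839 bases from the start (39579738 to 39580039) held 15.2, 27.9 and 43.0 CPM in controls and 6.64, 12.1 and 19.2 CPM with Dyrk1b, on 5 to 32 reads per library. Dyrk1b 3 lay above control 1, so the groups overlapped, and the log2 change was -1.10 ± 0.46 (unadjusted p = 0.0191, adjusted p = 0.277 by edgeR), with -0.70 without control 3 and -1.56 without Dyrk1b 3. The remaining 3, at 59789, 48167 and 23562 bases, had log2 changes of -0.04 ± 0.28, 0.44 ± 0.41 and 0.21 ± 0.33.

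Ppara encodes the fatty acid sensor that turns on fat oxidation in the fasted liver. Its peak in intron 4 of 7 (chromosome 15, 85671641 to 85672066) held 58.6, 46.2 and 52.4 CPM in controls and 37.2, 30.9 and 32.2 CPM with Dyrk1b. Every Dyrk1b library was below every control, with a log2 change of -0.65 ± 0.28 (unadjusted p = 0.0245, adjusted p = 0.296 by edgeR). The peak at the start (85619453 to 85619998, intron 1 of 2) had the widest spread of controls among the metabolic receptors, at 19.9, 62.0 and 101 CPM against 49.1, 54.0 and 58.4 CPM, and a log2 change of -0.15 ± 0.29. It was -0.58 without control 1 (unadjusted p = 0.031, adjusted p = 0.387 by edgeR) and 0.41 without control 3. Control 1 was the low library there and the highest control at the intron 4 peak.

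Nr1h4 encodes FXR, the bile acid receptor, which limits bile acid synthesis in part through Nr0b2. At its upstream promoter (chromosome 10, 89369322 to 89369741) controls held 36.3, 41.3 and 39.0 CPM and Dyrk1b libraries 29.2, 16.5 and 26.1 CPM. The groups did not overlap, and the log2 change was -0.70 ± 0.34 (unadjusted p = 0.0417, adjusted p = 0.340 by edgeR), or -0.50 without Dyrk1b 2. In intron 1 of 9, at 6392 bases, the values were 37.5, 30.4 and 24.2 CPM against 23.9, 30.9 and 15.4 CPM (log2 change -0.42 ± 0.37). The 2 peaks in intron 7 of 8 differed in sign. The one at 89306496 to 89307160 went from 61.4 ± 13.2 to 46.7 ± 4.54 CPM (-0.40 ± 0.26) and the one at 89294499 to 89295020 from 57.6 ± 15.8 to 60 ± 4.72 CPM (0.07 ± 0.25), with overlap at both.

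The promoter of Nr0b2, a target of FXR whose sequence is printed above, held 123, 92.3 and 104 CPM in controls and 104, 83.8 and 137 CPM with Dyrk1b. Groups overlapped fully and the log2 change was 0.04 ± 0.21 (chromosome 4, 133280032 to 133280946). The oxysterol receptor gene Nr1h3, which drives cholesterol export and lipid synthesis genes, had 137, 126 and 110 CPM against 119, 120 and 103 CPM at its start (chromosome 2, 91024884 to 91025919), a log2 change of -0.13 ± 0.21. These 2 peaks and that of Esrra had the smallest standard errors among the receptors, 0.21 each, as did the Rxra peak in intron 9.

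Nr1i2 encodes PXR and Nr1i3 encodes CAR, sensors of drugs and other foreign compounds that induce cytochrome P450 genes. At Nr1i2 the peak in intron 1 of 8, 12049 bases from the start (chromosome 16, 38102974 to 38103300), held 49.2, 47.4 and 55.1 CPM in controls and 29.2, 37.5 and 26.9 CPM with Dyrk1b. All Dyrk1b libraries were below all controls, with a log2 change of -0.70 ± 0.29 (unadjusted p = 0.0193, adjusted p = 0.277 by edgeR). A second peak of the same intron, nearer the start (38107965 to 38108501), did not share this, at 75.0, 75.3 and 64.5 CPM against 83.6, 51.8 and 78.3 CPM (-0.01 ± 0.23). The promoter peak (38115960 to 38116248), held 34.0, 15.8 and 21.5 CPM against 31.8, 26.5 and 37.6 CPM (0.43 ± 0.36). The only peak of Nr1i3, of the promoter class (chromosome 1, 171040448 to 171040759), held 41.0, 53.4 and 24.2 CPM against 37.2, 30.9 and 29.2 CPM (-0.31 ± 0.32), with overlap.

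Hnf4a had 2 peaks, both with overlapping groups. The peak over the downstream start held 42.2, 29.2 and 52.4 CPM in controls and 31.8, 34.2 and 45.3 CPM with Dyrk1b, for a log2 change of -0.13 ± 0.30. The HNF1 core letters lie in the RefSeq window before this start, and whether the peak covers them was not tested. The peak in intron 1 of 2 between the starts (163382518 to 163383004) held 69.2, 49.8 and 75.3 CPM against 42.5, 57.3 and 44.5 CPM, a log2 change of -0.43 ± 0.26. The related Hnf4g had its only peak at the start (chromosome 3, 3572806 to 3573442), at 45.7, 42.5 and 32.3 CPM against 41.1, 35.3 and 63.7 CPM (0.24 ± 0.29, and -0.08 without Dyrk1b 3).

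**Figure D4:**
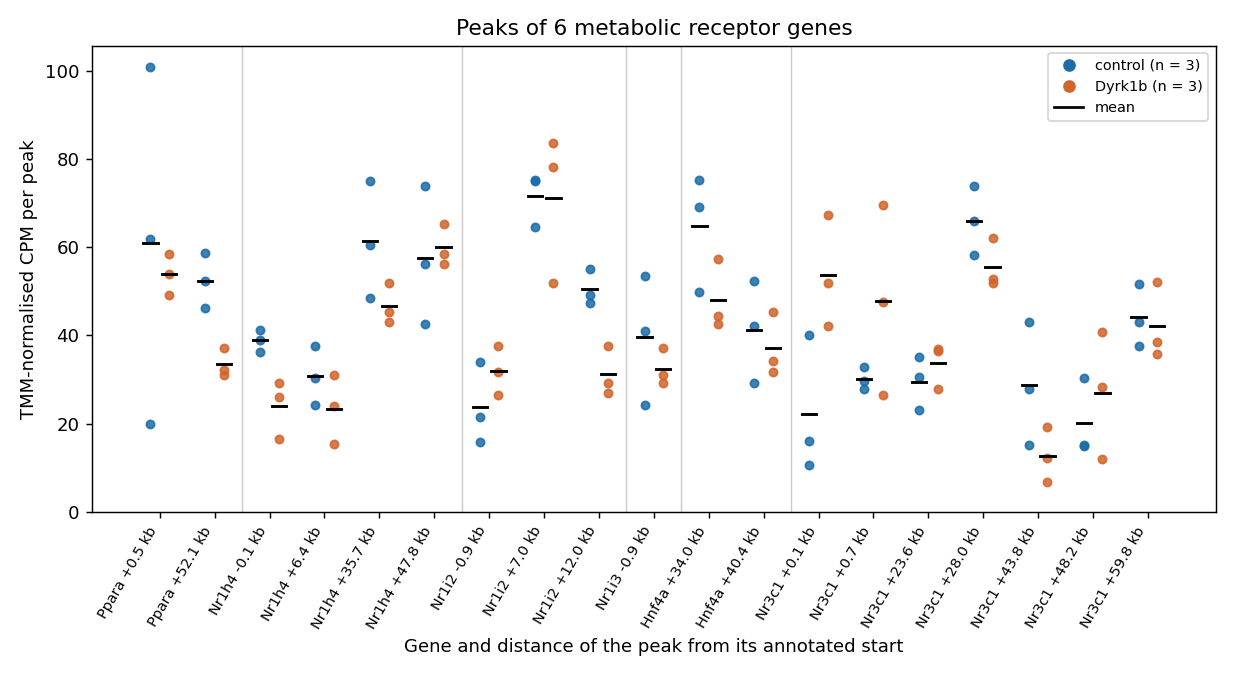
TMM-normalised CPM of the 19 peaks of Ppara, Nr1h4, Nr1i2, Nr1i3, Hnf4a and Nr3c1, each labelled by its distance from the annotated start. Points are libraries, black bars are group means, and n = 3 per group. The groups are apart at 4 peaks: the Ppara peak of intron 4, the Nr1h4 promoter, the Nr3c1 peak over the start, and the Nr1i2 peak 12049 bases from the start. These are 21.1% of the 19, close to the 19.5% of all peaks.

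Over the 6 metabolic receptors 6 of 19 peaks had a positive and 13 a negative log2 change (median -0.15), and 2 higher and 4 lower peaks had an unadjusted p under 0.05, of which 0 were called. These 6 are 31.6% of the 19 peaks, against 14.2% of all peaks, and the 4 peaks with groups apart are 21.1%, against 19.5% of all peaks. With the library totals behind RPKM 10 of the 19 were positive and 9 negative (median 0.05). At an unadjusted p under 0.05 by edgeR 2 were then higher and 0 lower, against 1650 and 249 of all 22032 peaks tested. Of all peaks 65.1% were then positive (median 0.17), against 52.6% of the 19, and 50.5% against 31.6% with TMM. A group of 11 receptor genes of lipid, bile acid and drug metabolism adds Ppard, Pparg, Nr1h3, Nr0b2, Hnf4g and Nr5a2 to 5 of the metabolic receptors. It leaves out Nr3c1, which had 4 of 7 peaks positive with TMM. The group had 7 of 28 peaks positive with TMM (25%, median -0.19). With the library totals behind RPKM it had 13 of 28 (46.4%, median -0.02). These counts describe the chosen genes and carry no test.

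Pparg, low in healthy hepatocytes and a driver of fat storage, had 6 peaks. In intron 7 of 7 the peak at chromosome 6, 115457743 to 115458155, held 10.6, 18.2 and 21.5 CPM in controls and 29.2, 34.2 and 31.5 CPM with Dyrk1b. These were 9, 15 and 16 reads in controls and 22, 31 and 41 with Dyrk1b. All Dyrk1b libraries were higher, with a log2 change of 0.92 ± 0.39 (unadjusted p = 0.022, adjusted p = 0.288 by edgeR). A separate peak that ends 12 bases before it had 39.5 ± 7.74 and 36.9 ± 4.74 CPM (-0.08 ± 0.30). At the upstream start (115337753 to 115338891) controls held 42.2, 93.5 and 55.1 CPM and Dyrk1b libraries 86.3, 77.2 and 87.5 CPM (0.40 ± 0.24), where control 2 was the highest of all 6. The peak over the internal start held 28.1, 3.64 and 17.5 CPM against 17.3, 2.21 and 19.2 CPM (-0.33 ± 0.59), and library 2 was the low one in both groups. Just upstream of it (115398614 to 115398892) the groups were apart, at 24.6, 21.9 and 32.3 CPM against 14.6, 19.8 and 19.2 CPM (-0.53 ± 0.41). Ppard, a widely expressed PPAR gene, had 2 peaks in intron 3 at -0.26 ± 0.24 and -0.19 ± 0.30.

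Nr5a2 encodes LRH-1, a regulator of bile acid and cholesterol genes, and had 5 intronic peaks. The peak in intron 6 of 8 at chromosome 1, 136837911 to 136838219, held 12.9, 18.2 and 25.5 CPM in controls and 21.2, 33.1 and 42.2 CPM with Dyrk1b, for a log2 change of 0.81 ± 0.38 (unadjusted p = 0.0383, adjusted p = 0.330 by edgeR). Dyrk1b 1 lay below control 3, so the groups overlapped. The log2 changes of the other 4 peaks ran from -0.41 to 0.00, and the one with the highest mean CPM, not scaled for length (136853645 to 136854086), held 47.8 ± 7.7 and 37.8 ± 14.9 CPM.

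The mineralocorticoid receptor gene Nr3c2, a close relative of Nr3c1, had 7 peaks in introns 2 to 4, of which 5 were negative. The lowest p was at chromosome 8, 77639799 to 77640098, with 29.3, 25.5 and 35.0 CPM in controls and 26.5, 9.92 and 6.91 CPM with Dyrk1b. Dyrk1b 1 lay within the controls, and the log2 change of -1.13 ± 0.45 (unadjusted p = 0.0146, adjusted p = 0.263 by edgeR) was -1.83 without Dyrk1b 1 and -0.73 without Dyrk1b 3. Its neighbour 75 bases upstream had low values in library 2 of both groups, at 42.2, 17 and 40.3 CPM against 51.8, 7.72 and 29.2 CPM (-0.19 ± 0.38). At 77771453 to 77771820 the groups were apart and higher with Dyrk1b, at 14.1, 14.6 and 17.5 CPM against 26.5, 18.7 and 29.2 CPM (0.70 ± 0.44).

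Esr1, the oestrogen receptor gene, had 6 intronic peaks with log2 changes from -0.82 to 0.65. The peak with the highest mean CPM (chromosome 10, 4570805 to 4571501) held 77.4, 66.8 and 59.2 CPM in controls and 65.0, 36.4 and 54.5 CPM with Dyrk1b (-0.39 ± 0.25). Some libraries held 1 read, the smallest count in the table, at the peaks of intron 5, where the standard errors reached 0.78. Over the 3 steroid receptor genes 10 of 20 peaks were positive.

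Retinoid X receptors are the shared dimer partners of the PPAR, FXR, LXR, PXR, CAR, thyroid hormone and retinoic acid receptors. Rxra had 5 peaks with log2 changes from -0.34 to 0.38. The peak with the highest mean CPM, in intron 9 of 9 (chromosome 2, 27648197 to 27648897), held 103, 93.5 and 122 CPM in controls and 82.3, 91.5 and 85.2 CPM with Dyrk1b. The groups were apart by a narrow margin, at -0.30 ± 0.21. The promoter peak (27566076 to 27566389) held 32.8, 27.9 and 41.7 CPM against 53.1, 36.4 and 43.8 CPM (0.38 ± 0.30). Rxrb had 1 peak, in intron 7 of 9 (chromosome 17, 34255633 to 34255940), with 37.5, 53.4 and 51.1 CPM in controls and 13.3, 29.8 and 38.4 CPM with Dyrk1b. Dyrk1b 3 passed control 1, and the log2 change was -0.74 ± 0.32 (unadjusted p = 0.0224, adjusted p = 0.289 by edgeR), or -0.45 without Dyrk1b 1 and -1.10 without Dyrk1b 3. The peak of Rxrg had -0.21 ± 0.27.

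Receptors for retinoic acid, thyroid hormone and vitamin D had 5 of 16 peaks positive (7 of 16 with the library totals behind RPKM) and 0 with an unadjusted p under 0.05 by edgeR. The positive shares were 31.2% and 43.8%, against 50.5% and 65.1% of all peaks. All 3 peaks of Rara were negative, from -0.30 to -0.12. The Rara peak at chromosome 11, 98824034 to 98824374, held 48.1, 49.8 and 49.7 CPM against 46.4, 41.9 and 46.8 CPM. Its groups were apart at a log2 change of only -0.12 ± 0.27, which turned to 0.04 with the library totals behind RPKM. The 4 peaks of Rarb ran from -0.86 to 0.00, and the peak with the highest mean CPM, not scaled for length (chromosome 14, 5953638 to 5954299), was at 43.1 ± 3.85 and 43.0 ± 1.94 CPM. Thrb, the main thyroid hormone receptor gene of liver, had 7 peaks from -0.34 to 0.19, with 52.3 ± 6.12 and 45.3 ± 3.73 CPM at its start (chromosome 14, 4808627 to 4809209, -0.20 ± 0.27). Thra had 39.8 ± 20.6 and 46.6 ± 11.6 CPM in intron 2 (0.22 ± 0.30, and -0.10 without control 1). Vdr held 30.5, 36.4 and 16.1 CPM against 33.2, 41.9 and 36.9 CPM at its start (chromosome 15, 97805787 to 97806411, 0.42 ± 0.33).

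The oestrogen-related receptors, which bind DNA without a known natural ligand, had 13 peaks. The Esrra promoter (chromosome 19, 6898895 to 6899665) held 150, 119 and 96.8 CPM in controls and 96.9, 138 and 131 CPM with Dyrk1b, for a log2 change of 0.00 ± 0.21. Of the 12 Esrrg peaks 10 had positive log2 changes, from -0.10 to 0.93 over all 12, and 0 an unadjusted p under 0.05 by edgeR. Most of them lie over 50 kb from the start, where 58.9% of all peaks were positive. With the library totals behind RPKM 12 of 12 tested peaks of the oestrogen-related receptors were positive, against 65.1% of all peaks. The Esrrg peak with the highest mean CPM (chromosome 1, 187495240 to 187495728) held 51.4 ± 6.23 and 50.6 ± 10.4 CPM.

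Among the other orphan receptors, Nr2f6, a repressor of the COUP family, had the lowest p. Its promoter peak (chromosome 8, 71835284 to 71835597) held 61.0, 59.5 and 39.0 CPM in controls and 26.5, 41.9 and 29.2 CPM with Dyrk1b. Dyrk1b 2 lay above control 3, and the log2 change was -0.71 ± 0.29 (unadjusted p = 0.017, adjusted p = 0.273 by edgeR). Nr6a1, a germ cell and embryonic receptor gene, had 3 positive peaks. That of intron 4 of 11 (chromosome 2, 38687168 to 38687531) was apart at 22.3, 8.50 and 13.4 CPM against 30.5, 27.6 and 23.8 CPM (0.86 ± 0.44), and that near the start went from 29.2 ± 5.23 to 33.9 ± 4.66 CPM (0.20 ± 0.33). The testicular receptor gene Nr2c1 had 124, 76.5 and 86.0 CPM against 95.5, 73.9 and 102 CPM at its promoter (-0.08 ± 0.22), and its intron 2 peak was apart at 51.2 ± 1.29 against 44.0 ± 2.93 CPM (-0.22 ± 0.27). Nr2c2 had 60.3 ± 17.9 and 59.5 ± 12.2 CPM near its start (0.01 ± 0.25) and 1.01 ± 0.52 at an intron 1 peak where Dyrk1b 2 lay below all controls. The early response gene Nr4a1 had log2 changes of 0.14 ± 0.34 and -0.08 ± 0.36 at its 2 peaks, both in intron 2. Its relative Nr4a3 held 96.1, 104 and 116 CPM against 78.3, 130 and 87.5 CPM at its promoter (-0.09 ± 0.22).

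Genes that work with the receptors were read from lists, and none of their peaks was called by edgeR. Coactivators, which the receptors recruit to open chromatin and which include Wbp2, had 53 peaks at 19 of 20 genes (25 positive, median -0.02), with 5 higher and 3 lower at an unadjusted p under 0.05, together 15.1% against 14.2% of all peaks. The lowest p in each direction were at Ncoa7 (2.29 ± 0.73, from 3.25 ± 2.49 to 16.5 ± 1.92 CPM, adjusted p = 0.182) and Wbp2 (-0.72 ± 0.23, adjusted p = 0.175). The Ncoa7 peak held few reads in controls, near the floor of the counts, and passed the low-count filter only through its Dyrk1b libraries. Corepressors had 18 of 36 peaks positive (median 0.00), with 2 higher and 2 lower at that level, together 11.1% against 14.2% of all peaks, among them Lcor at 0.63 ± 0.24 and Rcor1 at -0.79 ± 0.29. Genes that make or break down ligands had 8 of 22 positive (median -0.06), with the lowest p at Fads2 (-0.68 ± 0.27) and, among higher peaks, Aldh1a1 (0.59 ± 0.30). A list of 12 further receptor genes had 13 of 25 positive (median 0.04), with the heme receptor gene Nr1d1 at -0.73 ± 0.26 and Rora at 0.92 ± 0.40.

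Known target genes of the receptors had 31 of 99 peaks positive (median -0.18), with 1 higher and 11 lower at an unadjusted p under 0.05 by edgeR, together 12.1% against 14.2% of all peaks, and 0 called. Their groups were apart at 7 higher and 22 lower peaks, together 29.3% against 19.5% of all peaks. The summed level over their 100 peaks was 5419, 5106 and 4895 CPM in controls and 4558, 4535 and 4542 CPM with Dyrk1b, while that over the 95 receptor peaks was 3732, 3811 and 3905 CPM against 3638, 3534 and 3781 CPM. With the library totals behind RPKM 47 of 100 target peaks were positive (median -0.01). Then 2 were higher and 2 lower at an unadjusted p under 0.05 by edgeR, against 1650 and 249 of all 22032 peaks tested. Of all peaks 65.1% were then positive (median 0.17). With TMM 50.5% of all peaks and 31.3% of target peaks were positive. The first sums, in TMM-normalised CPM, were apart between groups and the second overlapped. The lowest p were at the lipid droplet gene Plin2 (-1.21 ± 0.29, adjusted p = 0.0966) and, among the higher peaks, at the retinoic acid hydroxylase gene Cyp26b1 (0.94 ± 0.35, adjusted p = 0.227). In these libraries the hepatocyte marker peaks had a median of -0.25 (4 of 5 below 0) and those of other cells 0.50 (10 of 12 above 0). Medians of the other cell types ran from 0.15 (1 blood cell peak) and 0.16 (3 macrophage peaks) to 0.97 (2 B cell peaks). The sets share genes: Apoa1 and Apob are both hepatocyte markers and listed targets, and Rarb is both a listed target and a receptor gene. Dhrs3, Cyp26a1 and Dio1 are both listed targets and ligand metabolism genes, so their peaks count in both lists. The part of the marker differences in these sums was not tested.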

How the data were processed

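ATAC-seq was measured in 6 mouse liver samples. Per the submitters' processing notes Bowtie2, DiffBind and ChIPseeker were used; no source used here gives the peak caller or read filters. The authors deposited whole read counts per peak (smallest value 1), RPKM values per library and group mean, a log2 ratio of mean RPKM, and a p-value and FDR per peak from a test that is not named. Peak names run to 30387, and other peaks were not analysed here. The notes list mm10, but only 3.38% of 10554 genes start within 2 kb of their GRCm38 position, so deposited coordinates are given without naming a build.

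The deposited counts entered edgeR 4.0.16 (R 4.3.3; TMM, filterByExpr, quasi-likelihood, no covariate, Benjamini-Hochberg over 22051 peaks; 361 removed). Levels are CPM of reads in peaks. SE is the log2 change over the root of F. The fit was tested on data drawn from a known model. DESeq2 1.42.0 and limma 3.58.1 were alternatives. The members and lists were chosen with earlier results of these data known. Named were all peaks of the 6 metabolic receptors, the promoter peak with the highest mean of the others, or else their highest peak, and peaks with an unadjusted p under 0.05 or groups apart; of each list the lowest p in each direction. Other peaks given singly were chosen after their values were seen. Lists were described by counts and medians only.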

Additional observations from a re-analysis of the deposited data

How the results depend on the processing

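Of the 95 receptor peaks 0 were called higher and 0 lower under each of the 13 alternatives, with the lowest adjusted p, 0.0514, without control 2. DESeq2 gave an adjusted p to only 18 of the 95, and not to the Nr3c1 peak over the start. Its 0 calls therefore cannot decide for the peaks it left out. With the library totals behind RPKM 93 peaks were tested. Calls over all peaks, 2 higher and 5 lower, were 0 and 18 by DESeq2, 0 and 2 by limma-trend, 2 lower with library size only, 1 and 2 after loess normalization, and 1 and 0 with the library totals behind RPKM. With 1 library left out they ran from 0 to 6 higher and from 0 to 9 lower. The median over receptor peaks, -0.08, was 0.10 with the library totals behind RPKM and 0.01 with 1 promoter peak per gene, and -0.12 to -0.04 with 1 library left out. At an unadjusted p under 0.05, counts of receptor peaks were 4 higher and 2 lower without control 3, 2 and 2 without Dyrk1b 3, and 3 and 10 after loess normalization. In the same order, all peaks had 1281 higher and 1388 lower, 1115 and 1318, and 1187 and 1600. With the library totals behind RPKM the positive peaks were 33 of 52 for coactivators, 24 of 36 for corepressors, 14 of 22 for ligand metabolism and 15 of 24 for further receptors, against 65.1% of all peaks. All 11 peaks with such a p kept their sign under each alternative. For 52 named peaks, 665 of 676 values lay within the rule of same call and sign or 1 SD. This rule was easy to meet. No receptor peak was called, so peaks with such a p had only to keep their sign, and the others could change sign. The Ppara peak at the start ran from -0.58 to 0.41 within it. Replicate numbers are shared between groups, and deviations of same-numbered libraries correlated at -0.00979, -0.0144 and 0.0073. The labels do not say whether same-numbered libraries were prepared together. These correlations cannot decide it with 3 libraries per group and few reads per peak. With the replicate block 0 receptor peaks were called and the median was -0.06, and over all peaks 2 higher and 5 lower, the same counts as without it. With 25 to 47 reads in the median peak, the median SE was 0.32 at a single receptor peak on the log2 scale. A change of 1.25 with an SE of 0.34 was not called.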

Other observations

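The 3 neighbouring peaks at the Nr3c1 start were added up after their values were seen. Their sum was 117, 126 and 112 CPM in controls and 130, 190 and 152 CPM with Dyrk1b, higher in 3 of 3 Dyrk1b libraries. An exact two-sided permutation test over libraries gave p = 0.1, the smallest that 3 against 3 allows. As the peaks were picked by their values in these libraries, this p gives no independent test. Over all 7 Nr3c1 peaks the sums were 230, 245 and 247 CPM against 212, 318 and 289 CPM and overlapped (exact permutation p = 0.4).

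Neighbouring peaks of the same gene less than 1 kb apart were compared within each library, as the log2 ratio of reads plus 1, for 7 pairs. At Pparg in intron 7 the downstream peak was below its neighbour by -1.81, -0.75 and -1.08 in controls and by -0.18, -0.04 and -0.42 with Dyrk1b, a difference of 1.0 with groups apart (exact two-sided permutation p = 0.1, Benjamini-Hochberg adjusted p = 0.7 over the 7 pairs). At the Nr3c1 start the peak upstream of the start was above the peak over it by 2.68, 0.53 and 1.94 in controls and by 0.00, -0.34 and 0.55 with Dyrk1b (difference -1.65, exact permutation p = 0.2, adjusted p = 0.7). The other 5 pairs had exact p of 0.3 to 0.9.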
